A study of Homo sapiens with 23 samples.

Results

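Binding of phosphorylated SIRT1 and phosphorylated MCM2 was compared in K562 cells of late S phase. K562 is an established human line from chronic myelogenous leukemia, and the labels call the cells wild type, name no treatment and give elutriation, a separation of living cells by size, as the way the fraction was made. SIRT1 carrying a phosphate at T530 (pSIRT1) and MCM2 carrying one at S139 (pMCM2) were each mapped by ChIP-seq in 1 library, so 2 of the 23 samples of the series are described here. Late S nascent strands of the same line, short new DNA purified with λ-exonuclease, gave another list, also from 1 library. The purity of the fraction is not stated, and the protocol text shared by all samples speaks of asynchronous cultures while the sample labels name late S.

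All regions of both ChIP lists on chromosomes 1 to 22 and X were taken, 120213 for pSIRT1 and 42953 for pMCM2, and 137 and 91 regions elsewhere were left out. A region that shared at least 1 bp with the other list is called joint, and any other region is called pSIRT1-alone or pMCM2-alone. The names describe these lists only. Each list rests on 1 library, so no test was made and no replicate error is known. Intervals in parentheses are 95% Wilson intervals of shares, which cover counting error only, and neighbouring regions are not independent.

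MCM2 is a subunit of the ring-shaped MCM helicase, which is loaded onto origins before S phase and unwinds DNA at the fork once it is activated. Kinases of S phase phosphorylate MCM2 when loaded helicases fire. SIRT1 is an NAD-dependent deacetylase of histones and other proteins, and its residue T530 is a target of cell cycle and stress kinases. The series title puts phosphorylated SIRT1 at origins as a limit on excess initiation, so the comparison asks where both proteins lay on the chromatin of cells near the end of replication. The last sequences to replicate are in large part gene-poor and heterochromatic.

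The pSIRT1 list was the longer and deeper one. Its regions covered 257 Mb with a median width of 1600 bp, from 200 to 157200 bp, and held between 16 and 24728 reads with a median of 46. The pMCM2 regions covered 49.9 Mb with a median width of 1000 bp, from 200 to 52800 bp, and held between 7 and 5115 reads with a median of 14. Regions of the pSIRT1 list summed to 11059472 reads and those of pMCM2 to 917926. Total library depth is unknown, so a site missing from the pMCM2 list cannot be told apart from a site with too few reads for a call. The 81959 late S nascent-strand regions covered 194 Mb, with a median width of 2000 bp and 62 reads.

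Most pMCM2 regions of late S lay where pSIRT1 did, while most pSIRT1 regions had no pMCM2 region. Of the pMCM2 regions 25352 were joint, which is 59.0% (58.6 to 59.5). Of the pSIRT1 regions 24937 were joint, which is 20.7% (20.5 to 21.0). That left 17601 pMCM2-alone and 95276 pSIRT1-alone regions. By length, 27.2 Mb were shared, 54.4% of the pMCM2 bases and 10.6% of the pSIRT1 bases. The pSIRT1 list covered 8.48% of these chromosomes, counted to the last region of any list used, and the pMCM2 list 1.65%. With the pSIRT1 list shortened to the 42953 regions with the most reads, the pMCM2 share was 34.5% and the pSIRT1 share 32.6%, so both shares depend on how long the lists are.

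The joint regions of both lists formed 24309 separate blocks, and 22802 of these (93.8%) held exactly 1 pSIRT1 and 1 pMCM2 region. Only 989 pSIRT1 regions met more than 1 pMCM2 region, with at most 5, and 606 pMCM2 regions met more than 1 pSIRT1 region, with at most 4. The overlaps made 25980 pairs. In 14490 pairs (55.8%) the pMCM2 region lay inside a longer pSIRT1 region, in 3247 (12.5%) the pSIRT1 region lay inside the pMCM2 region, and in 6493 they overlapped in part. The remaining 1750 pairs (6.74%) had the same start and end. The median stretch in common was 800 bp. As separate medians over pairs, it took up 50% of the pSIRT1 region and 100% of the pMCM2 region.

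Middles of paired regions were close, in part by the way pairs were made, since regions that overlap can be no further apart than their widths allow. The median distance between them was 500 bp, with quartiles of 200 and 1000 bp, and 5% of pairs were more than 2600 bp apart. Since regions start and end on a grid of 200 bp, distances come in steps of 100 bp. In 2680 pairs (10.3%) both middles were the same, in 34.2% they were at most 200 bp apart and in 76.0% at most 1000 bp. The 189 pairs with middles over 5000 bp apart (0.727%) reached 79600 bp. Distance went with width: the median was 900 bp where the pSIRT1 region had at least 2000 bp and 200 bp where it was narrower. Within those 13528 pairs of wide pSIRT1 regions, 52.6% of pMCM2 middles lay in the central 50% of the pSIRT1 region. The pMCM2 middle lay inside the pSIRT1 region in 12279 of these pairs, and in the others it could not fall in the central part. The share over all wide pairs can therefore not be read against the 50% of width, and centring was not tested.

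**Figure D1:**
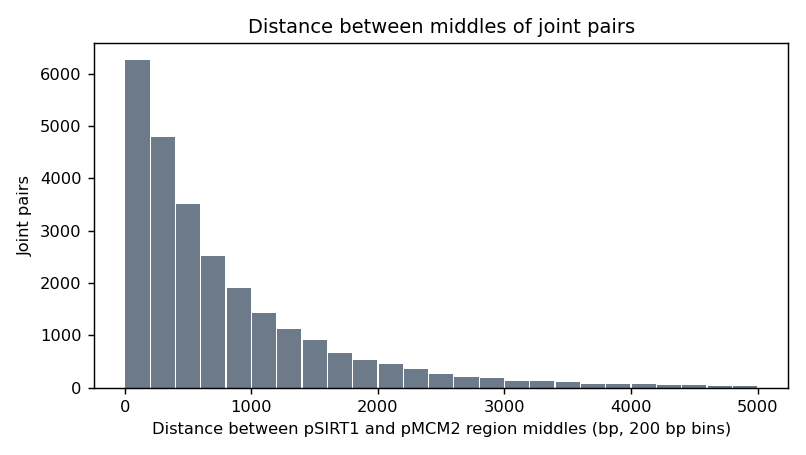
Number of joint pairs (y axis) by distance in bp between the middle of the pSIRT1 region and that of the pMCM2 region (x axis, bins of 200 bp up to 5000 bp). The first bin holds 6267 of 25980 pairs and each later bin holds fewer than the one before.

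Regions without a partner mostly lay more than 1 kb from the other list. The middle of a pSIRT1-alone region was a median of 16800 bp from the closest pMCM2 middle, with quartiles of 7700 and 36400 bp. For pMCM2-alone regions the median to the closest pSIRT1 middle was 9500 bp, with quartiles of 4200 and 23800 bp. Edges lay within 1 kb of the other list for 3543 pSIRT1-alone regions (3.72%) and 1692 pMCM2-alone regions (9.61%). More than 50 kb separated the edges for 16.4% and 10.6%.

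Joint regions were wider and held more reads than regions alone. Joint pSIRT1 regions had a median width of 2000 bp against 1600 bp for pSIRT1-alone, and joint pMCM2 regions 1000 bp against 800 bp for pMCM2-alone. The 25% and 75% points were 1000 and 3400 bp for joint pSIRT1, 800 and 2600 bp for pSIRT1-alone, 600 and 1800 bp for joint pMCM2 and 400 and 1200 bp for pMCM2-alone. A wider region has more room to be overlapped, so these differences are in part set by the way the classes were made. With lists of equal length the order of the pSIRT1 widths turned, to a joint median 0.938 times that of the regions alone, and it also turned for both lists when 200 bp around region middles had to meet. Of pMCM2 regions wider than 4000 bp, 95.2% were joint, against 51.0% of those up to 400 bp. Of pSIRT1 regions the shares were 34.2% and 17.4%.

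Reads separated the classes more than width did. The median was 71 reads in joint pSIRT1 regions and 42 in pSIRT1-alone regions, and 18 reads in joint pMCM2 regions and 11 in pMCM2-alone regions. Per kb of region the medians were 37.9 and 30.9 reads for pSIRT1 and 18.8 and 15.0 reads for pMCM2. Joint pSIRT1 regions held 40.9% of all reads in the pSIRT1 list, and joint pMCM2 regions 73.5% of those in the pMCM2 list. In the 10% of the pMCM2 list with the fewest reads, 7 or 8 each, 34.5% (33.1 to 35.9) of regions were joint. In the 10% with the most reads, at least 38, 92.8% (91.9 to 93.5) were. The same parts of the pSIRT1 list, with 16 to 24 and at least 158 reads, gave 10.2% (9.72 to 10.8) and 48.8% (47.9 to 49.7). The pMCM2-alone class thus held mainly the weakly counted part of its list, with 11 reads at its median against 14 in the whole list.

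At equal width joint regions also had more reads. Between 1000 and 2000 bp, the median was 51 reads in joint and 40 in pSIRT1-alone regions, and 21 in joint and 13 in pMCM2-alone regions. Among pSIRT1 regions over 4000 bp the medians were 216.5 and 153.5 reads.

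Within joint pairs the 2 libraries ranked sites alike to a moderate degree. Across the 25980 pairs, the reads of both lists had a Spearman correlation of 0.458 and a Pearson correlation of 0.530 on the log scale, and reads per kb gave 0.386 and 0.460. Pairs share their genome position, mappability and copy number, and read counts also share the width, so this is a description of the lists. Reads per kb were higher for pSIRT1 by a median log2 ratio of 1.18, with quartiles of 0.53 and 1.86, a value not scaled for depth. Relative to that median, 4452 pairs (17.1%) leaned over 2-fold to pSIRT1 and 4055 (15.6%) over 2-fold to pMCM2. In the 6495 pairs that leaned most to pMCM2, a pMCM2 region of median 600 bp met a pSIRT1 region of 2600 bp. In the 6495 pairs that leaned most to pSIRT1, the medians were 1400 and 1200 bp. Median reads were 17 for pMCM2 and 61 for pSIRT1 in the former set, and 20 and 127 in the latter. The former set thus did not hold more pMCM2 reads. Each side is divided by its own width, so a narrow pMCM2 region in a wide pSIRT1 region lowers the ratio in part by construction. Late S nascent strands met 28.6% of the pairs of the former set and 42.5% of the latter.

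Sites where both proteins were found met late S start sites most often. Of the joint pSIRT1 regions 36.1% (35.5 to 36.7) overlapped a late S nascent-strand region, against 17.1% (16.9 to 17.4) of pSIRT1-alone regions and 21.1% of the whole list. Of the joint pMCM2 regions 34.9% (34.3 to 35.5) did, against 25.8% (25.2 to 26.5) of pMCM2-alone regions and 31.2% of the whole list. The nascent-strand list covered 6.41% of these chromosomes. It held 13.6% of pSIRT1 bases and 27.6% of pMCM2 bases. The joint share was above the share of the regions alone on 23 of 23 chromosomes in each list. For pMCM2 the margin was uneven, from 40.5% joint against 39.4% alone on chromosome 1 to 30.1% against 11.4% on chromosome X. On single chromosomes the joint pSIRT1 share lay between 21.2% on chromosome 22 and 42.6% on chromosome 1. The pSIRT1-alone share lay between 7.72% on chromosome 22 and 25.1% on chromosome 6.

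Asking only whether the middle of a region fell in a nascent-strand region kept the order, with 29.0% of joint and 13.5% of pSIRT1-alone regions, and 30.9% of joint and 22.6% of pMCM2-alone regions. The difference for pSIRT1 was found in every width class. Up to 400 bp the shares were 25.1% (23.3 to 27.0) joint and 17.1% (16.4 to 17.8) alone, and over 4000 bp they were 35.0% (33.7 to 36.4) and 12.9% (12.2 to 13.6). The ratio of joint to alone was thus 1.47 in the narrowest and 2.71 in the widest class. With pSIRT1-alone regions weighted to the widths of joint ones, their share was 16.5%.

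For pMCM2 the difference was found in narrow regions and not in wide ones. Up to 400 bp 26.0% (24.8 to 27.1) of joint and 17.3% (16.3 to 18.4) of pMCM2-alone regions overlapped nascent strands, and between 1000 and 2000 bp 39.0% and 32.1% did. Between 2000 and 4000 bp the shares were 37.0% (35.5 to 38.6) and 37.8% (34.8 to 41.0), with overlapping intervals and 928 regions in the alone class. Over 4000 bp only 32 pMCM2-alone regions were left. Weighted to the widths of joint regions, the pMCM2-alone share was 28.2%, which left a difference of 6.70 percentage points in place of 9.10.

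**Figure D2:**
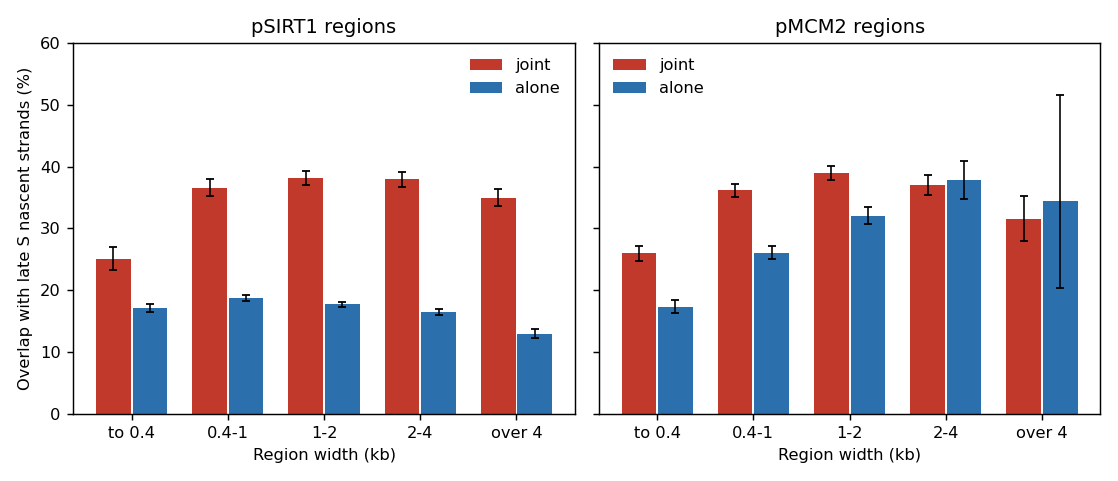
Share of late S ChIP regions that overlapped a late S nascent-strand region (y axis, percent) by region width in kb (x axis), for pSIRT1 (left) and pMCM2 (right), with joint regions in red, regions alone in blue and 95% Wilson intervals as bars. Joint pSIRT1 regions are above pSIRT1-alone regions in all 5 width classes, while joint and pMCM2-alone bars meet from 2 kb on.

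With the pSIRT1 list cut by reads into 10 classes of equal size, the share of all its regions that met late S nascent strands was 17.8% in the class with the fewest reads and 25.3% in the class with the most, the lowest and the highest of the 10. The nascent-strand share of joint regions was 29.0% in the class with the fewest reads, 39.1% in the eighth class and 36.5% in the class with the most reads, and that of pSIRT1-alone regions lay between 14.7 and 18.7%. The lowest pSIRT1-alone share was that of the class with the most reads. For pMCM2-alone regions the share was 21.4% in the class with the fewest reads, 29.0% in the sixth and the seventh, and 13.2% in the class with the most reads. Joint pMCM2 regions gave 30.2, 36.9, 38.7 and 30.1% in the same classes. Among these read classes of pMCM2, the share was thus lowest in the pMCM2-alone regions with the most reads. That class held 4296 regions, of which 92.8% were joint, so the lowest share rests on the small part left. Why it was low was not tested.

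**Figure D3:**
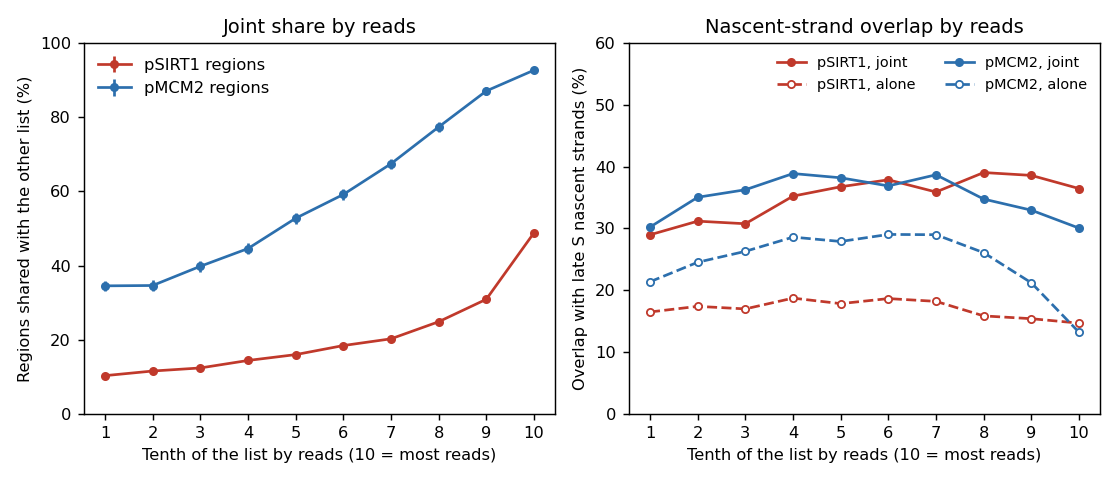
Left, share of regions joint with the other antibody (y axis, percent) by read class, 10 of equal size in each list (x axis, 10 holds the most reads), with 95% Wilson intervals, for pSIRT1 in red and pMCM2 in blue. Right, share overlapping late S nascent strands for joint (filled, solid) and alone (open, dashed) regions. The joint share of pMCM2 goes from 34.5 to 92.8%, while no nascent-strand curve is highest at its right end.

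Where all 3 lists met, region middles of both proteins lay at like distances from the nascent-strand middle, in part by the way these sets were made. Regions that overlap can have middles no further apart than their widths allow. In 8848 pairs (34.1%) the stretch shared by pSIRT1 and pMCM2 touched a late S nascent-strand region. The median distance from the nascent-strand middle was 600 bp to the pSIRT1 middle and 600 bp to the pMCM2 middle, with 75% points of 1300 and 1200 bp. Of 8908 such triples pMCM2 was the closer in 45.4%, pSIRT1 in 42.6%, and 12.0% were equal. Middles of pSIRT1 and pMCM2 in these triples were a median of 400 bp apart.

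Seen from the start sites, 29.4% of the 81959 late S nascent-strand regions carried pSIRT1 and 15.6% carried pMCM2. Both were found at 8737 sites (10.7%), pSIRT1 only at 15346 (18.7%), pMCM2 only at 4035 (4.92%) and neither at 53841 (65.7%). Of the sites with pMCM2 68.4% also had pSIRT1, against 22.2% of the sites without pMCM2. Sites with both were the widest and had the most nascent-strand reads, with medians of 2600 bp and 109 reads. Sites with neither had medians of 1800 bp and 57 reads, and sites with 1 of the 2 proteins lay between, at 2200 bp and 74 reads for pSIRT1 only and 2200 bp and 70 reads for pMCM2 only. A wider site has more room to be overlapped, so the order of widths is in part set by the classes. Per kb the medians were closer, at 41.7 reads with both, 35.7 with pSIRT1 only, 32.3 with pMCM2 only and 31.4 with neither.

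Start sites with both proteins were more often found in other parts of S phase than sites with neither. Of the late S sites with both proteins 65.0% were also in the early and the middle S nascent-strand lists, against 29.4% of the sites with neither. Sites found in late S and in no other fraction were 12.5% of those with both proteins, 23.5% with pSIRT1 only, 22.3% with pMCM2 only and 40.1% with neither. Sites with both were also wider and had more reads, and the part of these in being found again was not tested. From the side of the ChIP lists, 39.9% of joint pSIRT1 regions overlapped middle S nascent strands and 32.3% early S ones, so the late S share of 36.1% was not the highest. Of pSIRT1-alone regions 19.4% overlapped middle S and 16.1% early S. Of pMCM2-alone regions 24.2% overlapped middle S, 23.1% early S and 25.8% late S nascent strands, and in that class late S was the highest.

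Joint regions of late S returned in the ChIP lists of other phases more often than regions alone. For the same antibody, 68.4% of joint pSIRT1 regions were in at least 1 of the G1, early S, middle S and G2 lists, against 49.9% of pSIRT1-alone regions, and 82.9% of joint pMCM2 regions against 48.7% of pMCM2-alone regions. All 4 other phases held 4652 joint pSIRT1 regions (18.7%) and 3963 pSIRT1-alone regions (4.16%). For pMCM2 they held 2833 joint (11.2%) and 585 alone (3.32%). Joint regions also had more reads and width, and the part of these in being found again was not tested.

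A late S region alone often had the other protein in another phase when it carried pSIRT1, and seldom when it carried pMCM2. Of pSIRT1-alone regions 45612 (47.9%) overlapped pMCM2 in at least 1 other phase, and the G2 list, the longest of pMCM2, held 32.2%. The G1, early S and middle S lists held 9.50, 15.1 and 14.4%. Of pMCM2-alone regions 3387 (19.2%) overlapped pSIRT1 in another phase, with 13.0% for G1 and 7.00, 2.24 and 7.73% for early S, middle S and G2. Thus 14214 pMCM2-alone regions (80.8%) had no pSIRT1 region in any other phase, and by the definition of the class none in late S. The pSIRT1 list of unfractionated K562 cells held 18.7% of the class. The pMCM2-alone regions were narrower than pSIRT1-alone ones, with medians of 800 against 1600 bp. The part of width in this contrast was not tested. The late S pSIRT1 list is the longest K562 list of its antibody. Of joint regions, 84.2% of those of pSIRT1 had pMCM2 and 65.8% of those of pMCM2 had pSIRT1 in another phase.

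**Figure D4:**
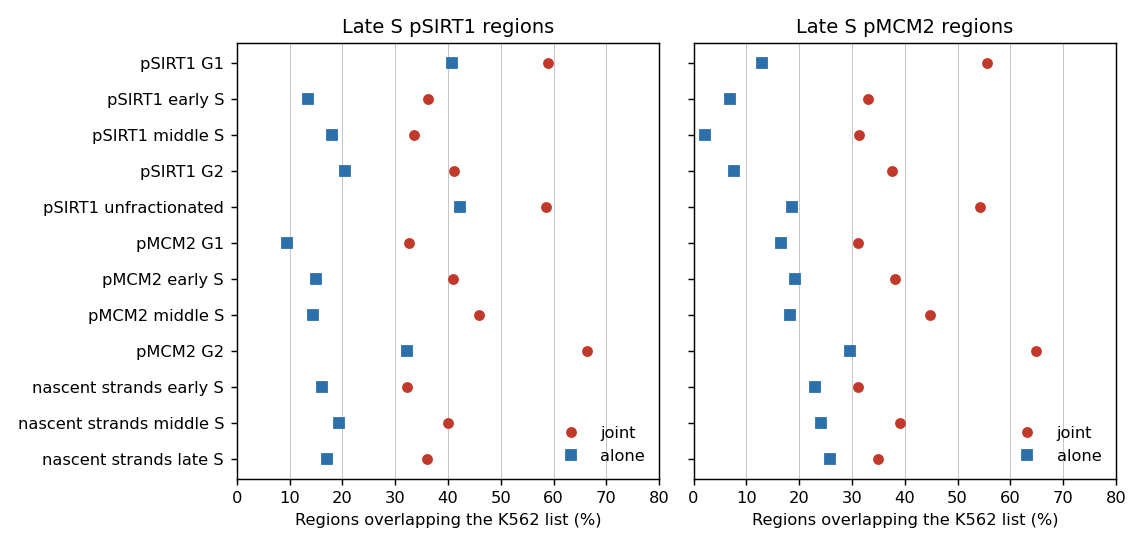
Share of late S pSIRT1 regions (left) and pMCM2 regions (right) that overlapped each other K562 list (x axis, percent; lists on the y axis), with joint regions as red circles and regions alone as blue squares. Joint regions are to the right in each of the 12 lists, from 32.3 to 66.4% for pSIRT1.

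Among the phases, late S and G1 had long pSIRT1 lists, and there most pMCM2 regions were joint. The pMCM2 share was 50.4% in G1 and 59.0% in late S, against 18.1% in early S, 21.0% in middle S and 17.3% in G2. Covered pSIRT1 length was 171 Mb in G1 and 257 Mb in late S, against 23.0, 80.3 and 52.2 Mb in early S, middle S and G2. The phase and the length of the list cannot be told apart in these shares. For pSIRT1 in middle S and in G2, a score and no read number stands beside each region.

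Chromosome 19 stood at opposite ends of the 2 lists. The pMCM2 share that was joint ran from 44.4% on chromosome 13 and 45.5% on chromosome 4 to 78.1% on chromosome 19, with a median of 58.3%. The pSIRT1 share ran from 16.6% on chromosome 19 to 24.0% on chromosome 18, with a median of 21.0%. Chromosome 19, the most gene-dense human chromosome, had 103 pSIRT1 regions per Mb and 23.0 pMCM2 regions per Mb, the highest of both. Chromosome 4, a gene-poor one, had 14.8 and 6.44. Over the 23 chromosomes the joint share of pMCM2 went with the density of pSIRT1 regions (Spearman 0.851), and the joint share of pSIRT1 did not go with the density of pMCM2 regions (Spearman -0.0069). Where pSIRT1 regions are denser, a pMCM2 region is more likely to meet one wherever it lies, so the first relation is in part built in. Joint pMCM2 regions per Mb numbered 17.9 on chromosome 19 and 2.93 on chromosome 4. pMCM2-alone regions numbered 5.02 and 3.51, so they were spread far more evenly than the joint ones.

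**Figure D5:**
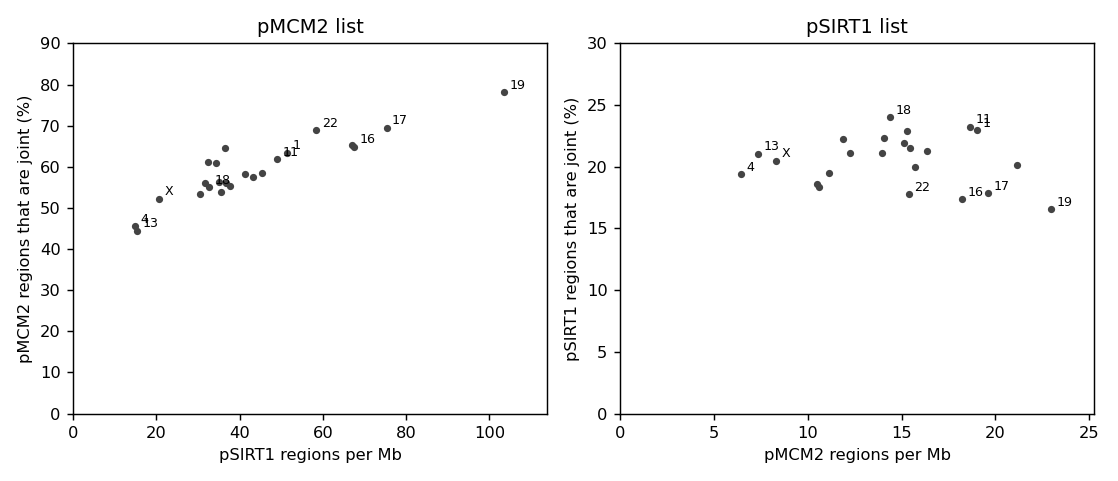
Left, share of pMCM2 regions that were joint (y axis, percent) against pSIRT1 regions per Mb (x axis); right, share of pSIRT1 regions that were joint against pMCM2 regions per Mb. Each point is 1 of 23 chromosomes and some are named; chromosome 19 is at the top of the left panel with 78.1% and at the bottom of the right panel with 16.6%.

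Single regions are given on hg19, with positions counted from 1. The joint block that ranked highest by its weaker side was chr4:49278401-49336200, with 24728 pSIRT1 reads and 6516 pMCM2 reads. Next came chr1:2581601-2634400 with 13324 and 3046 reads and chr18:104001-112600 with 9850 and 5115 reads. These 3 blocks are thus near the top of both lists at once. Mappability and copy number at the named regions were not tested, so many reads there need not mean strong binding.

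The fourth to the seventh block were chr21:9694001-9705800 with 6944 pSIRT1 and 1682 pMCM2 reads, chr2:133021601-133042000 with 6791 and 1783, chr7:100628401-100650000 with 6653 and 1505, and chr1:143273001-143284400 with 6613 and 1466. They were followed by chr4:49512001-49520800 with 4834 and 1121 reads, chr11:1010001-1029600 with 4457 and 637, and chr9:133881801-133931200 with 7707 and 580. None of these 10 blocks overlapped a late S nascent-strand region. With a count of 0 taken to allow up to 3, this allows a share of up to 30%, which is not a Wilson limit. The blocks are the top of a ranking, so the limit covers counting error only and no other blocks. All 10 overlapped pSIRT1 and pMCM2 regions of HCT116, a colon carcinoma line, too. In 6 of the 10 pSIRT1 and pMCM2 were found in all other phases of K562 as well, which held for 78 of the best 100 blocks and 1610 of all 24309 (6.62%). Among the best 100 blocks 37 met late S nascent strands, the same share of 37.0% as among all 24309 blocks.

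The pSIRT1-alone region with the most reads was chr9:133745801-133841400, 95600 bp wide with 24659 reads and 70000 bp from the next pMCM2 region. It was followed by chr22:19706601-19748000 with 12611 reads, chr1:228744001-228784400 with 9337, chr22:23234001-23287800 with 8853 and chr17:64792801-64796000 with 8211. The last of these packed its reads into 3200 bp. All 5 were pSIRT1 regions in each other phase, and none met late S nascent strands. Of the 10 pSIRT1-alone regions with the most reads 7 lay on chromosomes 9 and 22, as did 35 of the best 100 and 6420 of all 95276 (6.74%). These are the chromosomes joined in the BCR-ABL1 fusion that K562 carries. Without them 20.9% of pSIRT1 and 58.8% of pMCM2 regions were joint. The widest joint block was also on chromosome 22, chr22:23477201-23637600, with 18802 pSIRT1 reads over 159600 bp and 126 pMCM2 reads over 4600 bp. The widest pSIRT1-alone region was chr22:21955801-22054000, 98200 bp with 7985 reads.

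Some pMCM2-alone regions held as many pMCM2 reads as some of the best joint blocks. chr18:18510801-18520400 held 1935 reads, more than 7 of the 10 best joint blocks, and lay 177200 bp from the next pSIRT1 region. chr2:33141201-33141800 held 1776 reads in 600 bp, chr4:49633401-49660000 held 1036, chr9:66970801-66973800 held 916 and chr1:91852601-91853200 held 667. The region on chromosome 4 was with 26600 bp also the widest of the class. Each of the 5 overlapped pSIRT1 in 2 or 3 other phases, none met late S nascent strands, and none was a pMCM2 region in HCT116. Of the 100 pMCM2-alone regions with the most reads 10 met late S nascent strands, against 25.8% of the class.

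Some joint blocks leaned strongly to 1 protein in reads per kb, with each side divided by its own width. Among the 13155 blocks with at least the median reads of each list, the median log2 ratio of reads per kb was 1.30. The highest was 10.47 at chr10:99438601-99439600, where 6814 pSIRT1 reads in 200 bp met 24 pMCM2 reads in 1000 bp. The next were chr21:34948601-34950200 with 9.79, chr13:28157201-28159000 with 8.77, chr10:5618401-5620600 with 7.33 and chr2:3698801-3699800 with 7.33. All 5 had pSIRT1 in each other phase and met late S nascent strands, with 691, 476, 428, 194 and 880 nascent-strand reads in the same order.

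At the other end, chr12:48097201-48100800 had a log2 ratio of -4.49, from 60 pSIRT1 reads over 3600 bp and 75 pMCM2 reads in 200 bp at its right end. chr13:95945001-95950200 gave -3.75, chr8:106859001-106862600 -3.72, chr1:1649001-1653400 -3.56 and chr19:36066401-36069800 -3.15. In each, a pMCM2 region of 200 or 400 bp lay inside a pSIRT1 region of 3400 to 5200 bp. Only the block on chromosome 12 met late S nascent strands, with 136 reads. All 5 were pMCM2 regions in each other phase.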

How the data were processed

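The labels give K562 cells fractionated by elutriation. Enriched DNA was amplified with random primers and Klenow fragment and sequenced on an Illumina Genome Analyzer IIx, per the labels' protocols, a step that can add uneven coverage. Peaks were called against randomly sheared K562 DNA, per the labels; that library is not analysed here. The submitters' processing notes name hg19, MACS and SICER. The aligner, thresholds and versions are not given in the sources used. The authors deposited whole numbers per region, which were taken as read counts from their values, since the lists have no header, and these counts are not scaled between libraries. For pSIRT1 in middle S and in G2 the authors deposited a score with decimals, and only positions were used. Of HCT116, 5 lists were not used. Regions lay on a 200 bp grid, at least 800 bp from the next.

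Overlaps, widths, reads and distances between middles were computed with Python 3.11.15, numpy 2.4.6, pandas 2.3.3 and scipy 1.17.1, and plotted with matplotlib 3.10.9. Regions with equal reads were ranked in genome order. The overlap code was tested on simulated data and recovered the planted share in 3 of 3 runs of 5000 regions. No p-value was computed, because each list rests on 1 library. Members, rules and lists were chosen with earlier results of these data known. Named blocks are the 10 joint ones that rank best by their weaker list, the 5 with most reads alone in each list, the 5 highest and 5 lowest ratios, and the widest of each class. The rule also named gene lists, which were not used here, since the annotation at hand is on another build than the lists. The summaries of the best 100 regions of each class and the weighting of regions alone by width or reads were added after seeing the data.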

Additional observations from a re-analysis of the deposited data

How the results depend on the processing

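The nascent-strand share stayed higher in joint than in alone regions under 7 planned and 2 alternatives added after seeing the data, in each list. No paired analysis was possible because each group has 1 library. As shares of pSIRT1 and pMCM2 regions that were joint, requiring 50% of the shorter region gave 19.6 and 56.5%, a distance of up to 1 kb 22.7 and 61.9%, the 50% of each list with more reads 21.5 and 61.2%, equal list lengths 32.6 and 34.5%, and 200 bp around middles 5.21 and 14.6%. Merging regions within 1 kb gave 22.7% for pSIRT1. The joint minus pSIRT1-alone difference in nascent-strand share, 19.0 percentage points, was 18.1 with a distance of up to 1 kb, 17.7 with the 50% of each list with more reads, 21.8 with equal lengths and 17.4 around middles. The joint minus pMCM2-alone difference, 9.10 points, was 7.53, 5.39, 6.72 and 6.43 in the same order, 6.70 with widths and 11.1 with reads weighted to those of joint regions. The ratio of median widths, joint over alone, was 1.25 in both lists. For pSIRT1 it was 1.08 with the 50% with more reads, 1.38 after merging and 1.29 without chromosomes 9 and 22, and it turned to 0.938 with equal lengths and 0.625 around middles. For pMCM2 it was 1.17 with the 50% with more reads, 1.5 with equal lengths and turned to 0.8 around middles. The median distance of 500 bp became 600 bp with the 50% with more reads, 700 bp with equal lengths and 100 bp around middles, where windows that meet can be at most 200 bp apart. The cause of the other shifts was not tested. Reads in regions, not library depth, are known, and no pMCM2 region with under 7 reads was listed.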

Other observations

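The late S classes of K562 were also set beside the lists of unsynchronised HCT116 cells. Of joint pSIRT1 regions 76.5% (76.0 to 77.1) overlapped an HCT116 pSIRT1 region and 71.2% an HCT116 pMCM2 region, against 63.9 and 51.4% of pSIRT1-alone regions. Of joint pMCM2 regions 74.3% overlapped HCT116 pSIRT1 and 65.9% HCT116 pMCM2. Of pMCM2-alone regions 28.5% overlapped HCT116 pSIRT1 and 27.4% (26.7 to 28.0) HCT116 pMCM2. The pMCM2-alone regions of K562 were thus found again less often than joint ones both with their own antibody and with the other one. They were also narrower and had fewer reads, and the part of these in being found again was not tested. The HCT116 lists are long, covering 280.0 Mb for pSIRT1 and 187.5 Mb for pMCM2, and in HCT116 53.1% of pSIRT1 and 48.3% of pMCM2 regions were joint.

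Among regions with and without late S nascent strands, median reads were close within a class. Joint pSIRT1 regions had a median of 75 reads with and 69 without nascent strands, and pSIRT1-alone regions 42 and 43. Joint pMCM2 regions had 17 and 18 reads, and pMCM2-alone regions 11 in both cases. The nascent-strand regions met by joint pSIRT1 regions held a median of 106.5 reads, against 80 for those met by pSIRT1-alone regions.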
